A study of Homo sapiens with 6 samples.

Results

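The solute carrier (SLC) genes with an m6A peak were taken from 3 deposited peak lists of U2OS cells by gene symbol. A member was any gene whose symbol starts with SLC and a digit, outside 10 amino acid transporter genes and symbols with a hyphen. This gave 165 genes from 39 subfamilies, of 10859 genes with a peak in any list. Their peaks numbered 217 of 13147 in the DF2 siRNA 1 list, 211 of 13310 in the DF2 siRNA 2 list and 231 of 15272 in the control siRNA list. The symbol rule takes in 5 genes that do not encode a membrane carrier, namely SLC9A3R1 and SLC9A3R2 (NHERF1 and NHERF2, scaffold proteins that bind membrane transporters), SLC4A1AP and SLC7A6OS (named for a neighbouring or bound carrier) and the pseudogene SLC35E1P1.

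Solute carriers are membrane proteins that move ions, sugars, amino acids, nucleotides, vitamins and metals across the plasma membrane and the membranes of organelles, and each numbered subfamily groups carriers of related sequence. N6-methyladenosine (m6A) is an internal mark of messenger RNA, known to lie mostly near stop codons and in 3′ UTRs, with a further class at the 5′ end. YTHDF2 (DF2), a cytoplasmic m6A reader, is known to speed the decay of methylated transcripts.

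U2OS is an established human bone osteosarcoma line with no genetic change stated in the labels. The cells were treated with DF2 siRNA 1, DF2 siRNA 2 or a control siRNA, and no dose or time was given. Cytoplasmic RNA was fragmented to about 100 nt on average and enriched with an anti-m6A antibody, and the 6 samples are 1 m6A-IP and 1 input library for each of the 3 conditions. A single merged list per condition was deposited, so no value has a replicate error and no difference was tested. Read depths were not used here, and an absent peak and too few reads for a call cannot be told apart. The labels call the cells epithelial: of 5 epithelial genes, EPCAM, CDH1, KRT19 and KRT18 had no peak in any list, and KRT8 had 1 peak in each siRNA list and none in control. Of 5 osteoblast and mesenchymal genes, RUNX2 had 3, 2 and 2 peaks and COL1A1 2, 1 and 1 in the siRNA 1, siRNA 2 and control lists, VIM had 2 with siRNA 1 alone, and CDH2 and ALPL had none in any list. The strongest YTHDF2 peak ranked at percentile 84.3 with siRNA 1, 66.6 with siRNA 2 and 99.1 in control. A peak rank does not measure the knock-down.

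The 5′ UTR class made up 24.0% of member peaks with siRNA 1, 20.4% with siRNA 2 and 15.6% in control. All peaks had the same order, at 18.9%, 16.6% and 14.4%. The first bases are shown for SLC16A3 and for 5 members with GGAC there whose first 50 bases all lay in a siRNA peak. They are RefSeq sequences of GRCh38.p14, written 5′ to 3′ on the sense strand, with GGAC, the core letters often found at m6A sites, in capitals. The first is SLC16A3, a lactate exporter, at chr17:82228435-82228464 on the plus strand (transcript bases 1 to 30), which lay inside a peak with each siRNA but not in control, and holds no GGAC in its first 50 bases. The next is SLC25A29, a mitochondrial carrier of basic amino acids, at chr14:100306407-100306436 on the minus strand, inside a peak with each siRNA as well, with none in control. The following 3 were inside a peak with siRNA 1 alone: SLC25A39 at chr17:44324775-44324804 (minus), SLC2A11 at chr22:23856948-23856977 (plus) and SLC39A3 at chr19:2740037-2740066 (minus). The SLC2A11 peak was weak, at score percentile 5.76 of its list with a −log10 FDR of 1.63. SLC25A39 had another 5′ UTR peak close by in all 3 lists, at chr17:44323972-44324470. The last, SLC39A7 at chr6:33200878-33200907 (plus), a zinc carrier of the endoplasmic reticulum, was inside a peak in all 3 lists. That peak also held a stop codon and was not counted in the 5′ UTR class.
SLC16A3: gaggccgtgccccacatccaggcagcgcag
SLC25A29: agctgccgccgagGGACcagcgcgggtcta
SLC25A39: tgcgagcgcgcgcGGACcgcgcacaggcgg
SLC2A11: ctcgctctgcccaGGACgcacagatgagag
SLC39A3: gtgggcggggcgtGGACcagccgcgccgag
SLC39A7: ggatctaaaggcgGGACtgccacgtccaag
The search for GGAC, the choice of SLC16A3 and the inclusion of members covered with siRNA 1 alone were made after the peaks had been seen. The letters GGAC occurred in the first 50 bases of 18.7% of the members that could be read and 18.9% of all RefSeq windows.

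Most members had a peak in every list. Peaks were called in 138 of the 165 with siRNA 1 (83.6%; all genes, 77.5%), 133 with siRNA 2 (80.6%; all genes, 79.3%) and 151 in control (91.5%; all genes, 88.6%). A peak was present in all 3 lists for 122 of the 165 members (73.9%, 95% exact binomial interval 66.5% to 80.5%, counting error only), against 65.3% of all genes with a peak in any list. Among the 8815 genes that RefSeq calls protein-coding, a comparison added after the data had been seen, 71.0% had a peak in all 3 lists, which lies inside the members' interval. Peaks were absent from control and present in both siRNA lists for 4 members (2.42%, interval 0.664% to 6.09%), against 3.56% of all genes. A further 8 members had a peak with siRNA 1 alone, against 5.03% of all genes, and 2 with siRNA 2 alone, against 2.84%. In the control list alone were 20 members (12.1%, interval 7.56% to 18.1%), the same share as the 12.1% of all genes, with 8.95% of protein-coding genes. In control and 1 siRNA list, 4 members were missing from the siRNA 2 list alone (all genes, 3.63%) and 5 from the siRNA 1 list alone (all genes, 7.59%; protein-coding genes, 5.24%). The share missing from siRNA 1 alone was 3.03% of members (interval 0.991% to 6.93%), an interval that holds the protein-coding share and not that of all genes. In every pattern the members' interval held the protein-coding share, and no test of these differences was made.

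By subfamily, every member of SLC16 (5 genes), SLC29 (4 genes), SLC37, SLC41 and SLC43 (3 genes each) had a peak in all 3 lists. SLC12, the cation chloride cotransporters, had 7 of 8 members there, and SLC39 had 8 of 10. Among subfamilies of at least 5 genes, the lowest shares were those of SLC6, sodium-dependent transporters of amino acids and neurotransmitters, with 2 of 6 (33.3%, interval 4.33% to 77.7%), and SLC4, the bicarbonate transporters, with 1 of 5 (20.0%, interval 0.505% to 71.6%), which was SLC4A1AP and no carrier. In smaller subfamilies, neither SLC7 member nor the single members of SLC17, SLC36 and SLC50 were in all 3 lists. These subfamilies were picked after their counts had been seen, and their intervals are wide.

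**Figure D1:**
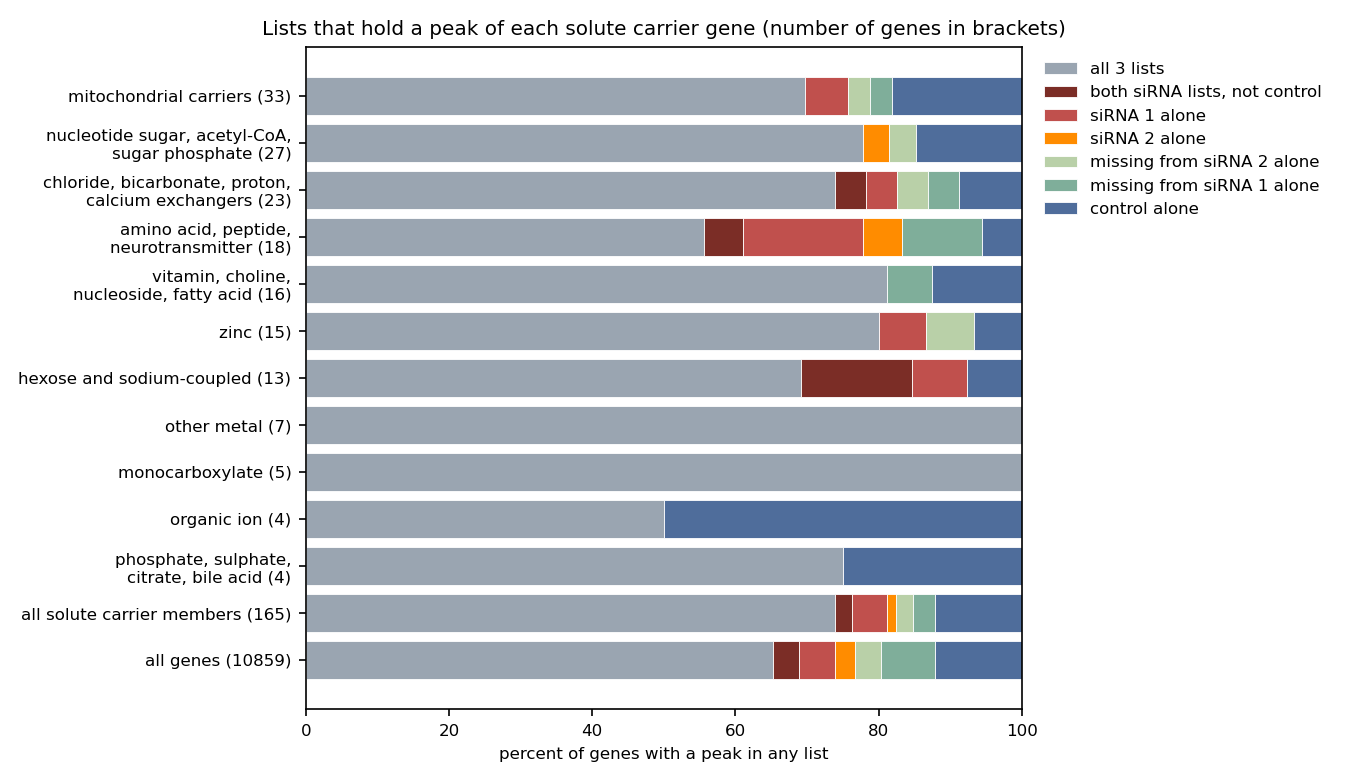
Percent of the genes of each role (horizontal axis, 0 to 100) by the lists that hold a peak of the gene, for 11 roles, all 165 members and all 10859 genes. The grey part, genes in all 3 lists, covers every monocarboxylate and every other metal transporter, 73.9% of all members and 65.3% of all genes.

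Values below are the authors' score, as a percentile within its own list, and the authors' fold enrichment of the strongest peak of a gene, always its peak with the highest score. No definition of the score was at hand, and percentiles of different lists stand side by side without measuring a change. The median member peak ranked at percentile 56.7 with siRNA 1, 55.8 with siRNA 2 and 62.0 in control, where the median over all peaks is near the middle of a list by construction. Of member peaks, 29 with siRNA 1 (13.4%), 28 with siRNA 2 (13.3%) and 38 in control (16.5%) stood in the top 10% of their list by score. The median fold enrichment of member peaks was 17.1 with siRNA 1, 19.3 with siRNA 2 and 19.1 in control, beside 14.9, 18.7 and 19.1 over all peaks.

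Monocarboxylate transporters, which carry lactate, pyruvate and related acids, had the highest median rank of the 11 roles. All 5 members were in all 3 lists, with a median strongest percentile of 98.3 with siRNA 1, 96.7 with siRNA 2 and 97.9 in control. SLC16A1, the widely expressed lactate carrier, ranked at percentile 99.3 with siRNA 1, 98.8 with siRNA 2 and 99.9 in control, with fold enrichments of 68.3, 50.9 and 67.9. This stop codon peak covered 1400 bases in every list, and SLC16A1 was the member with the highest control score. SLC16A3 ranked at 99.8 with siRNA 1, 99.5 with siRNA 2 and 99.8 in control, with fold enrichments of 75.2, 33.5 and 21.3. Its stop codon peak covered 1200 bases with siRNA 1 and 800 bases in both other lists. SLC16A6 stood at 98.3, 96.7 and 97.9, in the same order of lists. SLC16A5 was lower, at 81.6 with siRNA 1, 73.3 with siRNA 2 and 82.3 in control, and SLC16A13 lowest of the 5, at 56.0, 50.9 and 59.7.

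Hexose and sodium-coupled transporters bring glucose, inositol, iodide and vitamins into the cell, and 9 of 13 members were in all 3 lists. The glucose transporter SLC2A3 ranked at percentile 96.4 with siRNA 1, 90.3 with siRNA 2 and 99.4 in control, with fold enrichments of 53.6, 37.9 and 57.4. SLC2A1, the glucose transporter of most cultured cells, ranked at 93.3 with siRNA 1, 94.3 with siRNA 2 and 96.6 in control. It carried a second, 5′ UTR peak in each list, at percentiles 63.0, 52.9 and 67.4. SLC45A4 ranked at 88.0, 83.3 and 92.4 and the myo-inositol carrier SLC5A3 at 65.3, 74.4 and 81.4. SLC5A5, the sodium iodide symporter known from thyroid, was at 80.3 with siRNA 1, 61.3 with siRNA 2 and 64.6 in control. The glucose transporter of muscle and fat, SLC2A4, stayed low, at 24.6, 20.3 and 24.5.

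Zinc transporters comprise SLC30 proteins, which take zinc out of the cytosol, and SLC39 proteins, which bring it in. Of 15 members, 12 were in all 3 lists, with a median strongest percentile of 66.8 with siRNA 1, 76.7 with siRNA 2 and 86.7 in control. SLC39A14, an importer of zinc and manganese, ranked at 99.0 with siRNA 1, 97.7 with siRNA 2 and 99.2 in control. The plasma membrane exporter SLC30A1 ranked at 95.3, 93.7 and 99.3, with fold enrichments of 47.4, 36.7 and 67.9. SLC39A7 stood at 96.3 with siRNA 1, 96.6 with siRNA 2 and 97.2 in control, and its peak ran from the 5′ UTR over a stop codon. SLC39A3 ranked at 97.5 with siRNA 1, 92.3 with siRNA 2 and 89.6 in control, and its fold enrichment was 109, 62.2 and 44.3. SLC39A10, an importer, ranked at 86.5, 82.1 and 97.4, and its control list held another stop codon peak, at percentile 89.3, that overlapped no siRNA peak. SLC30A5 and SLC30A6, exporters of the early secretory pathway, stood at 52.1 and 65.3 with siRNA 1, 48.4 and 61.9 with siRNA 2, and 86.5 and 90.0 in control. Both were named after their values had been seen. The −log10 FDR of the SLC30A5 peak was 1.80 with siRNA 1, 1.68 with siRNA 2 and 8.70 in control.

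The other metal transporters all had a peak in every list (7 of 7). SLC41A1, a magnesium transporter, had its strongest peak in the 5′ UTR, at percentile 89.0 with siRNA 1, 90.1 with siRNA 2 and 83.6 in control. SLC41A3, of the same subfamily, stood at 89.1, 86.6 and 85.8 with a stop codon peak. SLC11A2, the iron importer of endosomes and gut, ranked at 74.9 with siRNA 1, 59.9 with siRNA 2 and 85.8 in control with a 3′ UTR peak. SLC31A1, the main copper importer, had a 3′ UTR peak of 600 bases in each list, at 67.6, 63.6 and 79.3. SLC41A2 was at 67.2, 55.4 and 75.1.

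Nucleotide sugar, acetyl-CoA and sugar phosphate transporters supply the Golgi and endoplasmic reticulum with substrates, and 21 of 27 members were in all 3 lists. SLC35E1, a member of unassigned substrate, ranked at percentile 98.2 with siRNA 1, 96.9 with siRNA 2 and 98.3 in control, with fold enrichments of 116, 118 and 78.6. SLC35F6 ranked at 97.2, 97.3 and 97.6, SLC35A4 at 96.4, 97.5 and 96.5, and SLC35E2B at 96.9, 95.0 and 96.1. SLC33A1, the acetyl-CoA importer of the endoplasmic reticulum, stood at 94.3 with siRNA 1, 89.5 with siRNA 2 and 95.1 in control. SLC35E1 shares part of its peak region with a peak given to another gene, as do SLC25A29 and SLC43A3, so reads there may belong to either.

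Mitochondrial carriers of the SLC25 subfamily are the largest group, with 33 members, 23 of them in all 3 lists. Their median strongest percentile was 71.4 with siRNA 1, 78.8 with siRNA 2 and 74.4 in control. SLC25A29 led the group by mean percentile, at 90.0 with siRNA 1, 94.6 with siRNA 2 and 83.7 in control, with a stop codon peak whose fold enrichment was 88.3, 97.9 and 53.3. SLC25A10, the dicarboxylate carrier, ranked at 85.3, 93.7 and 88.4, in a region it shares with peaks of MRPL12. SLC25A36, a pyrimidine nucleotide carrier, was at 85.8 with siRNA 1, 85.6 with siRNA 2 and 91.7 in control. The iron carrier SLC25A28 stood at 78.4, 87.3 and 88.0, and the ADP/ATP carrier SLC25A6 at 76.8, 83.4 and 92.2 with a 3′ UTR peak.

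Vitamin, choline, nucleoside and fatty acid transporters had 13 of 16 members in all 3 lists, and their median strongest percentile was 80.3 with siRNA 1, 81.6 with siRNA 2 and 78.5 in control. Both folate carriers ranked high. SLC19A1, the reduced folate carrier, stood at 95.3 with siRNA 1, 93.6 with siRNA 2 and 93.0 in control, and SLC46A1, the proton-coupled folate carrier, at 91.5, 90.5 and 97.3. The nucleoside transporters SLC29A1 and SLC29A2 ranked at 92.5 and 91.7 with siRNA 1, 91.1 and 85.5 with siRNA 2, and 88.8 and 86.1 in control. SLC27A4, a fatty acid transport protein, was at 91.2, 92.3 and 88.1. Peaks of the 5′ UTR class numbered 1 of 19 in this role with siRNA 1, 0 of 18 with siRNA 2 and 0 of 21 in control, beside 24.0%, 20.4% and 15.6% of all member peaks, a count picked after it had been seen.

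The exchangers of chloride, bicarbonate, protons and calcium had 17 of 23 members in all 3 lists and lower ranks, with medians of 59.0 with siRNA 1, 52.9 with siRNA 2 and 59.9 in control. SLC12A4, a potassium chloride cotransporter, led at 96.8, 92.0 and 95.0, although its region overlaps peaks of LCAT. SLC24A1, a calcium exchanger known from retinal rods, had its strongest peak in the 5′ UTR and coding sequence, at 74.2 with siRNA 1, 68.9 with siRNA 2 and 77.4 in control. SLC9A3R2, a scaffold protein placed here by its symbol, was at 74.7, 80.7 and 62.0 and SLC26A11 at 81.8, 59.6 and 69.5. The 23 also count SLC9A3R1 and SLC4A1AP by symbol, neither of them a carrier. SLC8B1, the mitochondrial sodium calcium exchanger, stood at 71.2, 70.3 and 59.9, which are not values of the same peak. Its stop codon peak ranked at 71.2, 70.3 and 59.4, and its 5′ UTR peak at 49.6, 48.8 and 59.9.

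The amino acid, peptide and neurotransmitter transporters left by the rule had 10 of 18 members in all 3 lists (55.6%, interval 30.8% to 78.5%). SLC38A10 ranked at percentile 99.5 with siRNA 1, 96.3 with siRNA 2 and 98.8 in control, and its fold enrichment of 228 with siRNA 1 was the highest of any member peak, beside 141 with siRNA 2 and 89.5 in control. SLC43A3, numbered with amino acid carriers but known to carry purine nucleobases, had a 3′ UTR peak of the same 917 bases in each list, at 98.0, 96.9 and 99.2. The glutamate transporter SLC1A3 stood at 95.0 with siRNA 1, 92.4 with siRNA 2 and 98.7 in control. SLC43A2, a neutral amino acid carrier, was at 97.0, 90.9 and 95.7, and SLC38A7, a lysosomal glutamine exporter, at 71.4, 69.5 and 81.9.

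Among phosphate, sulphate, citrate and bile acid transporters, 3 of 4 members were in all 3 lists. SLC10A3 ranked at 93.4 with siRNA 1, 98.1 with siRNA 2 and 97.4 in control. The phosphate importer SLC20A1 stood at 79.6, 85.4 and 92.1, and its relative SLC20A2 at 49.6, 59.6 and 75.9. These SLC20A2 peaks were all in the 5′ UTR, but the siRNA 1 peak shared no base with the control peak. The region of that control peak ranked at 47.0 with siRNA 1. Of 4 organic ion transporters, SLC22A23 and SLC22A4 were in all 3 lists. SLC22A23, an orphan carrier, was at 58.0 with siRNA 1, 45.7 with siRNA 2 and 56.1 in control, and SLC22A4, the ergothioneine carrier, had fold enrichments of 6.46, 24.4 and 14.6.

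**Figure D2:**
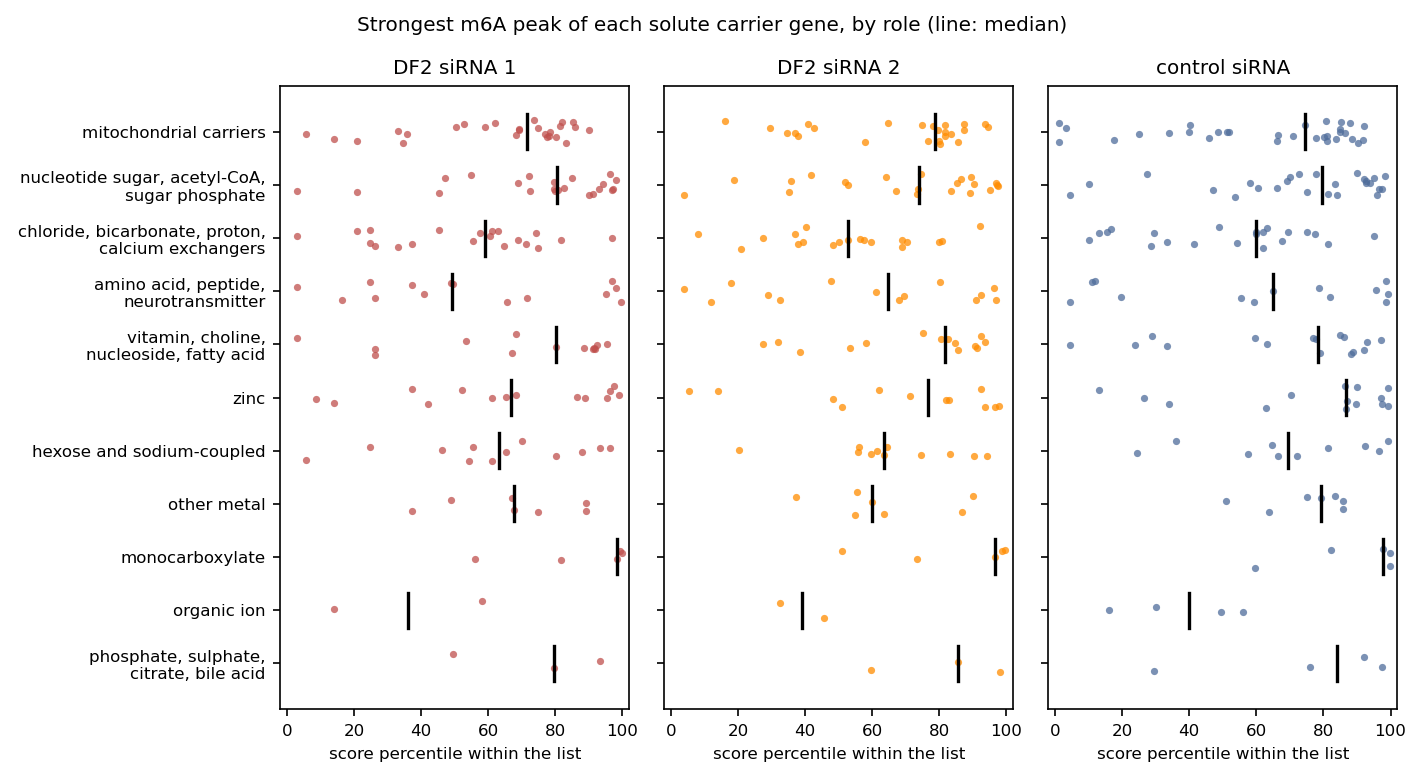
Score percentile within its list (horizontal axis) of the strongest peak of each solute carrier gene, by role, with 1 panel per list and a black line at the median of each role. The 5 monocarboxylate transporters have medians of 98.3 with siRNA 1, 96.7 with siRNA 2 and 97.9 in control, and the organic ion transporters 36.0, 39.0 and 39.8.

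SLC25A3, the mitochondrial phosphate carrier that feeds ATP synthesis, had a peak in the control list alone. The peak covered 400 bases at its stop codon, chr12:98601484-98601883 (hg38, plus strand), with a score at percentile 90.3, a fold enrichment of 12.1 and a −log10 FDR of 1.68. No siRNA list held a peak in the gene. Of the 34 members whose strongest control peak stood in the top 10% of the control list, SLC25A3 was the 1 without any siRNA peak (2.94%, interval 0.0744% to 15.3%). Among all genes this held for 3 of 1357 (0.221%). The lowest −log10 FDR of any deposited peak was 1.30, so this peak lay near the limit of calling.

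The other members in control alone ranked lower. SLC19A2, a thiamine carrier, had a 3′ UTR peak at percentile 63.1 with a fold enrichment of 16.4. SLC30A9, a mitochondrial zinc exporter, stood at 63.0, and SLC35D1, which carries UDP-glucuronic acid into the endoplasmic reticulum, at 58.2 with a fold enrichment of 21.4. SLC35A1, the CMP-sialic acid transporter of the Golgi, was at 53.7 and the carnitine transporter SLC22A5 at 49.6. Next came SLC25A12, the aspartate glutamate carrier, at 39.9, and SLC2A13, an inositol carrier, at 36.1. SLC10A5 had the highest fold enrichment of these genes, 28.1, and a −log10 FDR of 12.1 at percentile 29.4. SLC25A42, a coenzyme A carrier, stood at 17.6, SLC22A15 at 16.2 and the bicarbonate exchanger SLC4A8 at 13. The remaining 8 ranked at 10.1 or lower. The median over all 20 was 16.9, beside 16.8 over all genes in control alone, and 11 of them had a −log10 FDR of 2 or less (55.0%, interval 31.5% to 76.9%; all such genes, 44.0%). Of the members whose strongest control peak lay in the lower 50% of the list, 15 of 40 had no siRNA peak (37.5%, interval 22.7% to 54.2%), against 5 of 111 in the upper 50% (4.50%). Over all genes the same shares were 29.5% and 3.09%. By role, the 20 held 6 of the 33 mitochondrial carriers and 4 of the 27 members grouped with nucleotide sugar transporters, beside 20 of all 165 members (12.1%). Among those 4 was the pseudogene SLC35E1P1.

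Peaks in both siRNA lists and none in control were found for 4 members. SLC9A3R1, the scaffold of sodium proton exchangers, had the same 600 bases at its stop codon in both lists, chr17:74768600-74769199 (hg38, plus strand), at percentile 68.8 with siRNA 1 and 80.0 with siRNA 2. SLC50A1, a sugar transporter related to the plant SWEET proteins, had 2 peaks, identical in both lists, the higher at 61.0 with siRNA 1 and 55.8 with siRNA 2. SLC6A9, a glycine transporter, had a 3′ UTR peak at 48.8 and 68.1. SLC5A6, the sodium-dependent carrier of biotin and pantothenate, had a stop codon peak at 54.2 and 56.1. Fold enrichments of these strongest peaks ran from 10.9 for SLC6A9 to 13.9 for SLC9A3R1 with siRNA 1, and from 11.2 for SLC6A9 to 15.6 for SLC9A3R1 with siRNA 2. With siRNA 2, 2 of the 4 had a −log10 FDR of 2 or less (interval 6.76% to 93.2%; all such genes, 42.4%). With siRNA 1 it was 0 of 4 (all such genes, 24.3%). At an FDR under 0.01, SLC5A6 and SLC9A3R1 stayed in this pattern and SLC50A1 and SLC6A9 did not, while SLC2A8, SLC35A2 and SLC4A1AP entered it.

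In the siRNA 1 list alone, SLC25A22, a mitochondrial glutamate carrier, was highest with a 3′ UTR peak at percentile 52.8 and a −log10 FDR of 1.52. Of the 8 strongest peaks of this pattern, 6 had a −log10 FDR of 2 or less (interval 34.9% to 96.8%; all such genes, 51.5%). The zinc importer SLC39A1 and the taurine transporter SLC6A6 stood at 37.3 each, and the sodium bicarbonate cotransporter SLC4A7 at 20.8. The peaks of these last 3 were 5′ UTR peaks of 200 bases, and 6 of the 8 members found with siRNA 1 alone had a 5′ UTR peak (interval 34.9% to 96.8%), against 43.8% of all genes and 49.6% of protein-coding genes of this pattern. In the siRNA 2 list alone were SLC17A5, the lysosomal sialic acid exporter, at percentile 32.4 and SLC35A3, a Golgi carrier of UDP-N-acetylglucosamine, at 3.98. The −log10 FDR of the SLC17A5 peak was 1.30, level with the lowest of any deposited peak, and that of the SLC35A3 peak was 2.18.

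Some members were missing from 1 siRNA list and present in the other. SLC35B2, which brings the sulphate donor PAPS into the Golgi, had a peak over the same blocks with siRNA 1, at percentile 79.5, and in control, at 92.0, and none with siRNA 2. SLC4A2, an anion exchanger, stood at 63.0 with siRNA 1 and 54.2 in control, SLC39A13 at 42.0 and 13, and SLC25A16 at 5.76 and 25.0. Missing with siRNA 1 were SLC25A46, a protein of the outer mitochondrial membrane, at 36.9 with siRNA 2 and 66.6 in control, SLC27A2 at 53.5 and 59.6, SLC6A16 at 12 and 19.7, SLC12A5 at 8.15 and 15.4, and SLC36A1 at 3.98 and 11.0. Of these 5, 2 had a −log10 FDR of 2 or less in control (all such genes, 19.4%) and 0 with siRNA 2 (all such genes, 34.3%). A gene in 2 lists need not have the same peak in both: SLC25A46 had a 5′ UTR peak with siRNA 2 and a coding peak in control. SLC39A13 had a 3′ UTR peak with siRNA 1 and a separate 5′ UTR peak in control. SLC25A16 had a 5′ UTR peak with siRNA 1 and a separate 3′ UTR peak in control.

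**Figure D3:**
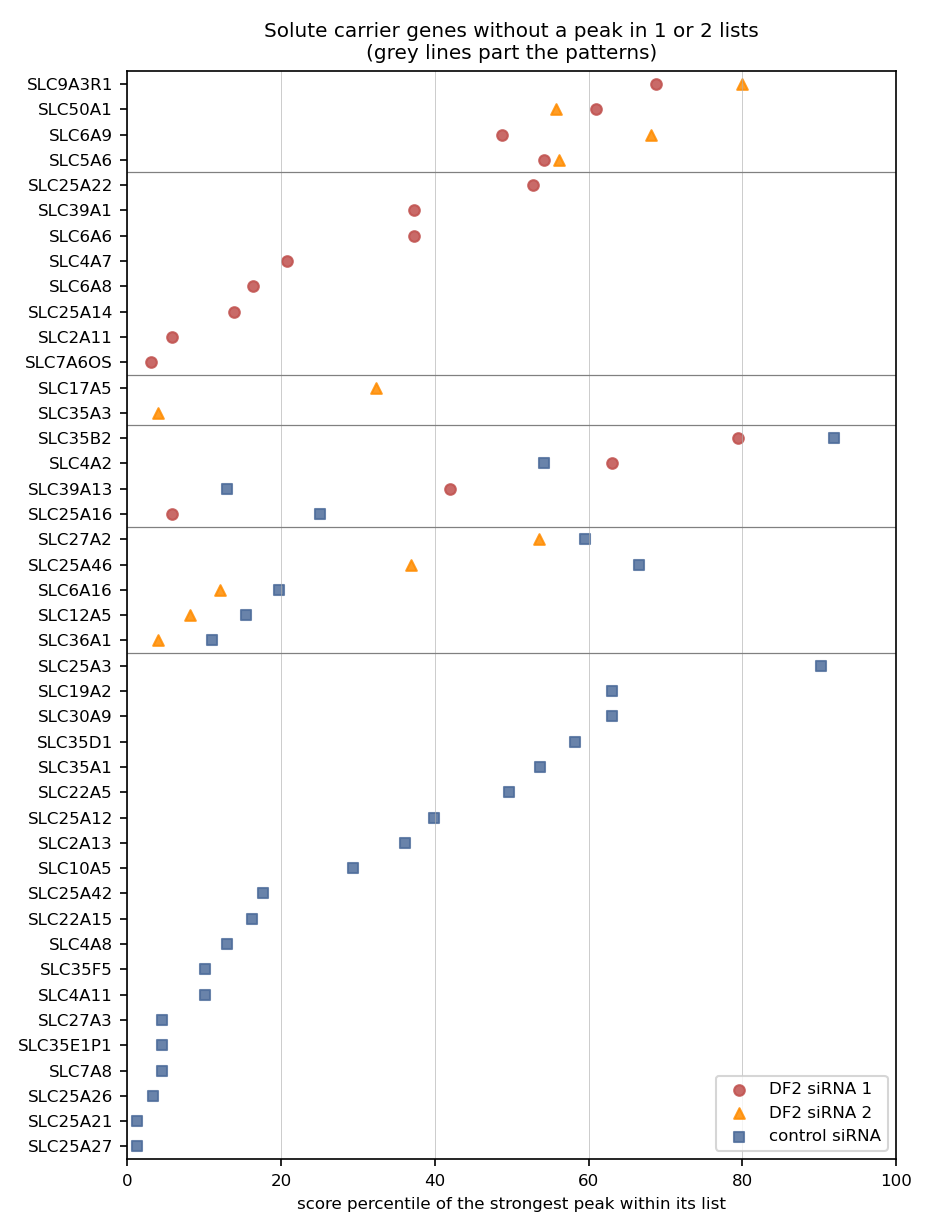
Score percentile of the strongest peak within its list (horizontal axis) for the 43 members without a peak in 1 or 2 of the 3 lists, grouped by pattern between grey lines. SLC25A3 stands at 90.3 in control alone, above the other genes of that pattern, and SLC35B2 at 79.5 with siRNA 1 and 92.0 in control.

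Where a member had a peak in all 3 lists, its strongest control peak nearly always overlapped a peak of each siRNA list. For 119 of 122 such members (97.5%) it overlapped a peak of both siRNA lists by at least 1 base, against 95.6% of all genes. The overlapping peak could be one given to another gene, as for SLC35E2 with siRNA 1. The strongest control peak of SLC6A17 overlapped neither siRNA list. SLC6A17, a vesicular carrier of neutral amino acids, had 3 peaks in each siRNA list, at percentiles 16.3 to 24.6 with siRNA 1 and 15.0 to 17.9 with siRNA 2, and 1 control peak at percentile 12 elsewhere in its 3′ UTR. The strongest peak had identical blocks in all 3 lists for 32 members (26.2%; all genes, 24.0%) and the same annotation class for 100 (82.0%; all genes, 79.6%). It was narrower with siRNA 1 than in control for 55 members and wider for 21 (45.1% and 17.2%; all genes, 49.0% and 16.3%). With siRNA 2 it was narrower for 46 and wider for 23 (37.7% and 18.9%; all genes, 38.5% and 18.8%). SLC30A5, for example, covered 400 bases with each siRNA and 800 in control, but at an FDR under 0.01 it was in control alone. The strongest peak was as wide as in control for 46 members with siRNA 1 and 53 with siRNA 2. These were 37.7% and 43.4%, beside 34.7% and 42.7% of all genes.

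Counted by peak, 172 of 217 siRNA 1 member peaks (79.3%, interval 73.3% to 84.5%) overlapped a control peak, against 81.5% of all siRNA 1 peaks. Of siRNA 2 member peaks, 179 of 211 did so (84.8%, interval 79.3% to 89.4%), against 86.1%. In the other direction, 171 of 231 control member peaks (74.0%, interval 67.9% to 79.6%) overlapped a siRNA 1 peak and 176 (76.2%, interval 70.2% to 81.5%) a siRNA 2 peak, against 67.1% and 73.4% of all control peaks. Between the siRNA lists, 184 of 217 siRNA 1 member peaks (84.8%; all peaks, 83.6%) overlapped siRNA 2, and 184 of 211 siRNA 2 member peaks (87.2%, interval 81.9% to 91.4%) overlapped siRNA 1, against 80.5% of all siRNA 2 peaks. The same 3 lists enter every comparison, so these shares are not independent of each other. Peaks on non-coding RNA made up 12.6% of all control peaks and 10.6% of all siRNA 2 peaks, against 0.866% and 0.474% of member peaks. No overlap share was computed for peaks of protein-coding genes alone, so the gap to all peaks is not a result about the members. In all 3 lists were 161 of the 231 control member peaks (69.7%; all control peaks, 62.8%), and 45 were in control alone (19.5%; all control peaks, 22.3%). Shared by both siRNA lists alone were 21 siRNA 1 member peaks (9.68%; all, 7.71%), matched by 22 siRNA 2 member peaks (10.4%; all, 7.38%). Another 24 member peaks were found with siRNA 1 alone (11.1%; all, 10.8%) and 10 with siRNA 2 alone (4.74%; all, 6.51%). Some genes held several peaks of unequal persistence. SLC35C2 (SLC35H1 in RefSeq), a Golgi protein, had 5 peaks with siRNA 1, 4 with siRNA 2 and 6 in control. Its stop codon peak at chr20:46349888-46350487 (hg38, minus strand) was identical in every list, while a control 3′ UTR peak at percentile 14.5 was in no siRNA list. SLC22A23 likewise had 5, 4 and 6 peaks, SLC24A1 4, 4 and 5, SLC39A3 5, 4 and 4, SLC12A8 3, 2 and 4, SLC25A24 2, 2 and 4, and SLC35E4 2, 3 and 4.

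By position in the transcript, most member peaks held a stop codon or lay in the 3′ UTR. A peak that included a stop codon in the authors' annotation, which may come from any isoform, was called a stop codon peak, and the others were classed by the UTR or coding sequence they touched. Stop codon peaks made up 101 of 217 member peaks with siRNA 1 (46.5%, interval 39.8% to 53.4%), 105 of 211 with siRNA 2 (49.8%, interval 42.8% to 56.7%) and 114 of 231 in control (49.4%, interval 42.7% to 56.0%), against 43.5%, 43.7% and 42.9% of all peaks. Over peaks of protein-coding genes the shares were 47.1%, 48.8% and 49.2%, each inside the members' interval. They were also the highest class: the median member stop codon peak ranked at percentile 74.7 with siRNA 1, 74.6 with siRNA 2 and 78.7 in control. Stop codon peaks ranked highest over all peaks too, with medians of 65.7, 66.5 and 68.5. Their part among the top 10% of a list was 26 of 29 member peaks with siRNA 1 (89.7%, interval 72.6% to 97.8%), 25 of 28 with siRNA 2 (89.3%, interval 71.8% to 97.7%) and 34 of 38 in control (89.5%, interval 75.2% to 97.1%). Over all peaks it was 73.0%, 73.0% and 75.6%. Peaks of the 3′ UTR class were 22.1% with siRNA 1, 22.7% with siRNA 2 and 25.5% in control, beside 17.1%, 17.1% and 19.1% of all peaks and 18.4%, 18.9% and 21.6% of peaks of protein-coding genes. Peaks in coding sequence alone were few, 10 of 217 with siRNA 1 (4.61%, interval 2.23% to 8.31%), 10 of 211 with siRNA 2 (4.74%, interval 2.30% to 8.54%) and 12 of 231 in control (5.19%, interval 2.71% to 8.90%). Over all peaks coding peaks made up 11.0%, 9.33% and 7.60%, and over peaks of protein-coding genes 11.9%, 10.5% and 8.64%. SLC22A4 was a member whose strongest peak lay in coding sequence in all 3 lists.

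**Figure D4:**
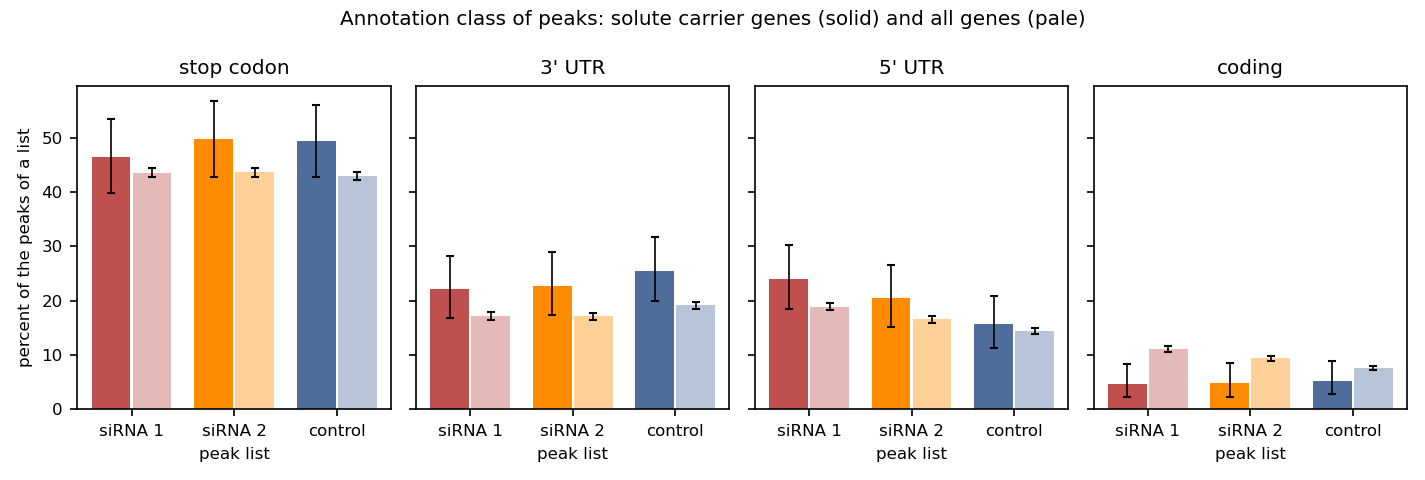
Percent of the peaks of a list (vertical axis) in 4 annotation classes, for solute carrier peaks (solid bars) and all peaks (pale bars), with 95% exact binomial intervals that cover counting error only. The solid 5′ UTR bars stand at 24.0% with siRNA 1, 20.4% with siRNA 2 and 15.6% in control, and the solid coding bars stay near 5.19% or lower.

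The 5′ UTR class differed in number between the lists. Members had 52 such peaks with siRNA 1 (24.0%, interval 18.4% to 30.2%), 43 with siRNA 2 (20.4%, interval 15.2% to 26.5%) and 36 in control (15.6%, interval 11.2% to 20.9%). All peaks showed the same order, at 18.9%, 16.6% and 14.4%, as did peaks of protein-coding genes, at 20.5%, 18.6% and 16.5%, each inside the members' interval. With the top 50% of each list by score, the member shares were 15.0% with siRNA 1, 15.7% with siRNA 2 and 12.2% in control, so the order of the siRNA lists turned and the gap to control shrank. Counting peaks that touched the 5′ UTR and no other part, the member shares were 12.9% with siRNA 1, 10.9% with siRNA 2 and 7.79% in control, against 7.85%, 7.84% and 7.22%. Of the 24 siRNA 1-alone member peaks, 15 were in the 5′ UTR (62.5%, interval 40.6% to 81.2%; all peaks of this kind, 46.2%), whereas 6 of 45 control-alone peaks were (13.3%; all peaks, 15.7%). Of the 24 siRNA 1-alone peaks, 15 had a −log10 FDR of 2 or less (62.5%; all peaks of this kind, 54.0%). A 5′ UTR peak beside a separate stop codon or 3′ UTR peak was present in 25 of 138 members with siRNA 1 (18.1%, interval 12.1% to 25.6%), 24 of 133 with siRNA 2 (18.0%, interval 11.9% to 25.6%) and 16 of 151 in control (10.6%, interval 6.18% to 16.6%). Over all genes the shares were 15.7%, 13.9% and 13.3%, and over protein-coding genes 17.8%, 16.4% and 16.3%, all inside the members' intervals.

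In 8 members a 5′ UTR peak was shared by both siRNA lists and overlapped no control peak. By siRNA 1 peaks, the 5′ UTR class made up 8 of the 21 member peaks of this pattern (38.1%, interval 18.1% to 61.6%), against 39.4% of all peaks of the pattern, so the share is that of the background. SLC16A3 ranked highest of these, with 200 bases in 2 blocks between chr17:82228397-82229082 (hg38, plus strand), at percentile 77.4 with siRNA 1 and 71.6 with siRNA 2. Its fold enrichment was 30.6 with siRNA 1 and 13.1 with siRNA 2, and its −log10 FDR was 9.16 and 1.90. SLC25A23, a mitochondrial carrier of ATP-magnesium and phosphate, stood at 66.5 and 68.4, and SLC1A3 at 64.3 and 59.7. SLC25A37, an iron carrier of mitochondria, was at 35.9 and 39.5 and SLC35B3, a PAPS transporter, at 38.6 and 27.4. SLC25A29 was at 18.7 and 34.1, SLC6A17 at 16.3 and 16.0, and SLC11A2 at 3.05 and 2.54. All 8 also had a peak somewhere in control, since their genes were in all 3 lists.

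**Figure D5:**
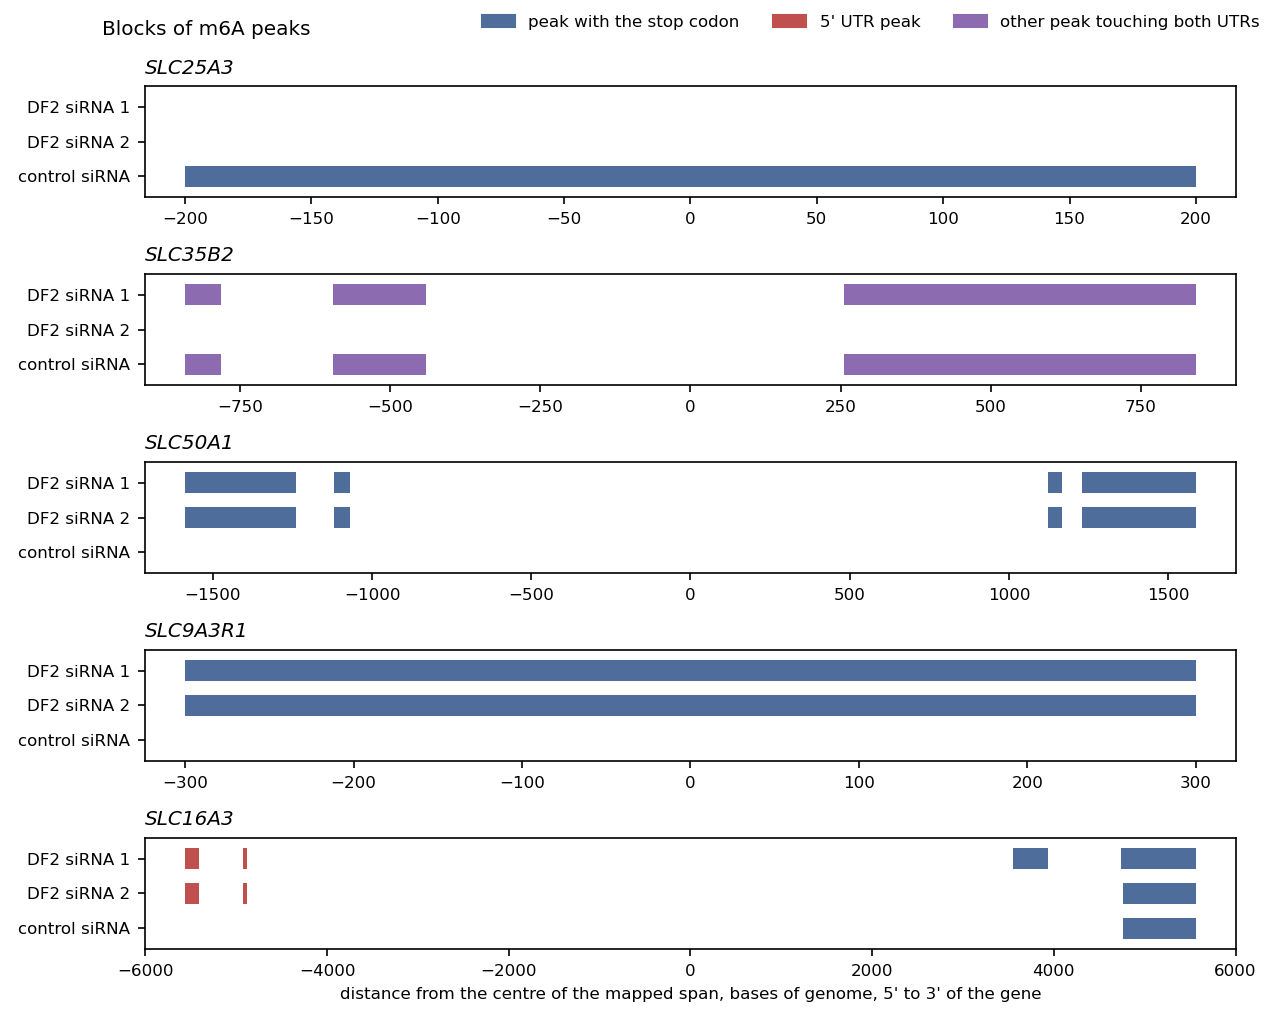
Blocks of the peaks of SLC16A3, SLC25A3, SLC35B2, SLC50A1 and SLC9A3R1, against distance from the centre of each mapped span in bases of genome, 5′ to 3′ of the gene (horizontal axis), with 1 line for each of DF2 siRNA 1, DF2 siRNA 2 and control siRNA. The 5′ UTR peak of SLC16A3 is drawn in both siRNA lines and not in the control line, and SLC25A3 has blocks in the control line alone.

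The first 50 transcribed bases, as RefSeq places the start, could be read for 134 members. A peak covered at least 1 of these bases in 23 members with siRNA 1, 21 with siRNA 2 and 16 in control, 33 members in all. Covered with each siRNA but not in control were SLC10A3, SLC16A3, SLC25A23, SLC25A24, SLC25A29, SLC33A1 and SLC50A1 (7 of 33, 21.2%), against 13.7% of the 2402 genes so covered in any list. In control alone were SLC26A2, SLC29A3, SLC35F5, SLC39A9, SLC7A8 and SLC9B2 (6 of 33, 18.2%), against 14.5%. These genes were named after their values had been seen, and the counts of the opposite patterns differ by 1 gene. The letters GGAC, searched on the sense strand only, occurred in this window in 25 of 134 members (18.7%) and in 18.9% of all 35116 RefSeq windows. They were present in 6 of the 23 members covered with siRNA 1, 3 of the 21 covered with siRNA 2 and 1 of the 16 covered in control, the last being SLC39A7. Among all genes covered the shares were 22.6% with siRNA 1, 23.5% with siRNA 2 and 22.7% in control. A match is a description of the letters and not a mapped site.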

How the data were processed

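The 6 samples, 1 m6A-IP and 1 input library of cytoplasmic U2OS RNA per condition, were grouped by their labelled treatment. The authors deposited 1 peak list per condition, marked as merged over r1 and r2. The score, the fold enrichment (a ratio) and the −log10 FDR of each peak are the authors' values, per the file headers. HISAT2 and hg38 are named in the submitters' processing notes. The peak caller was not given in the sources used here, nor was what the score means. Input and IP read depths were not used here, so precision is that of the number of peaks.

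Starts were raised by 1, and minus-strand block sizes were reversed, after which block ends matched peak ends in all 41729 peaks. Same-strand peaks that shared 1 base or more of their blocks counted as overlapping, whichever gene each was given to. Scores were ranked within a list, ties sharing a mean rank. Shares have 95% Clopper-Pearson intervals, and no p-value was computed. RefSeq GRCh38.p14 tables gave names (161 member symbols current, 3 updated, 1 unmatched), biotypes and start windows. Overlap calls were checked on simulated peaks. Python 3.11.15, pandas 2.3.3, scipy 1.17.1, networkx 3.6.1 and matplotlib 3.10.9 were used.

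Members, roles and lists were chosen with earlier results of these data known. Named genes were SLC25A3, the 10 highest control scores, up to 5 per role by mean percentile, the highest of each pattern of lists, the 6 with most control peaks (ties kept), members whose strongest control peak overlapped no siRNA list and 8 members with 5′ UTR peaks in both siRNA lists alone; exceptions are stated, and some members are not reported by name here. Alternatives changed the peaks used, the members, the overlap and the class rule. Motifs inside peaks were not analysed here.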

Additional observations from a re-analysis of the deposited data

How the results depend on the processing

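Of 66 pairs of a result and a setting, 48 stayed near the reported value and 18 moved. A share moved where it left the interval of the reported share. A count of members moved where it changed by more than a fixed ratio, whatever the number of members left. Each list was filtered before lists were compared. Members in control alone numbered 20 of 165 as reported (12.1%; all genes, 12.1%), 11 of 146 with an FDR under 0.01 (7.53%; all genes, 11.9%), 11 of 156 with the same number of top peaks by score from each list (7.05%; all genes, 7.37%), and 12 of 114 with the top 50% of each list by fold enrichment (10.5%; all genes, 15.6%). The top 50% by fold enrichment left 73 of 114 members in all 3 lists (64.0%; all genes, 58.5%), not 122 of 165, and put 11 of 114 in both siRNA lists alone (9.65%; all genes, 5.09%), not 4 of 165. SLC25A3 was in control alone under all peaks, the same number of top peaks and the top 50% by score, and its own peak fell out under the FDR and fold limits, while SLC35D1 was in control alone under each selection. Counting 5′ UTR peaks only where no other part of a coding transcript was touched gave 12.9% with siRNA 1, 10.9% with siRNA 2 and 7.79% in control, and the top 50% by score gave 15.0%, 15.7% and 12.2% (all peaks, 13.8%, 12.6% and 10.2%). That same selection gave stop codon shares of 65.0% with siRNA 1, 66.9% with siRNA 2 and 66.9% in control (all peaks, 59.0%, 60.4% and 62.1%). Control member peaks overlapped siRNA 1 in 82.8% and siRNA 2 in 83.7% of cases with the same number of top peaks. Overlap of siRNA 1 member peaks with control was 88.3% with the top 50% by score and 72.8% where each peak had to share 50% of its bases. Overlap of siRNA 2 member peaks with control was 89.6% with an FDR under 0.01 and 78.2% under the 50% overlap. The cause of these shifts in shares was not tested. No paired analysis was possible because each condition has 1 merged list.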

Other observations

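A strongest peak in the top 10% of every list was found for 21 of the 122 members present in all 3 lists (17.2%; all genes, 12.2%). Their strongest peak ranked lower with both siRNAs than in control for 69 (56.6%; all genes, 58.6%) and higher with both for 17 (13.9%; all genes, 20.0%), which are ranks within lists and measure no change. Single peaks that ran from the 5′ UTR over a stop codon occurred in 17 members in each list (12.3% with siRNA 1, 12.8% with siRNA 2 and 11.3% in control; all genes, 13.1%, 12.5% and 12.8%), among them SLC33A1, SLC35A4, SLC39A7, SLC41A3 and the inositol carrier SLC5A3 in all 3.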
